A study of Mus musculus with 4 samples.

Results

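Desmosomes are the junctions that hold epithelial cells together, and the 10 genes described here encode their parts together with p63, the transcription factor of stratified epithelia. The 10 genes were taken by symbol from a list of desmosome genes and Trp63, and all 10 were found among the 18702 genes of each library. They fall into 7 genes tied mainly to stratified epithelium (Trp63, Perp, Dsg1a, Dsg3, Dsc3, Pkp1 and Pkp3) and 3 desmosome genes expressed more broadly (Dsp, Jup and Dsg2). Eye tissue of C57BL/6 mouse embryos provided total RNA for sequencing. There were 2 libraries from embryos labelled KO, which the series describes as Anp32b-/-, and 2 from wild-type embryos (labelled WT). Anp32b encodes an acidic nuclear phosphoprotein that binds histones, and the series asks how its loss bears on Pax6 and on the development of the eye. The sources used here give neither the embryonic stage and sex nor the design of the targeted allele, nor how many embryos went into a library. Whether libraries sharing a genotype are separate embryos is likewise unstated, so p-values cover nothing beyond the spread of these 4 libraries, and that spread may be technical.

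In a desmosome, desmosomal cadherins (the desmogleins and desmocollins) reach across the gap between neighbouring cells. Inside the cell they bind the armadillo proteins plakoglobin and the plakophilins, and these bind desmoplakin, which anchors the keratin filaments. Some of these proteins occur in most epithelia, whereas others appear with stratification, as in epidermis, conjunctiva and the surface of the cornea. p63 is needed to form stratified epithelia in mice, and Perp, a membrane protein of desmosomes, is among its known target genes.

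The libraries held about 17920000 to 18100000 fragments each, estimated from the spacing of low values. Levels are FPKM (fragments for each kilobase of transcript, scaled to the library's total), and fold changes are differences of log2(FPKM + 1), KO minus WT, which understate changes of genes at low levels. The targeted gene Anp32b stood at 94.53 and 92.67 FPKM in KO libraries, against 163.18 and 179.12 FPKM in WT libraries. The KO mean was 0.547 times the WT mean, and which exons the remaining reads came from is not shown by a gene-level value. These data alone therefore do not show that the allele is null. Lens crystallins made up 1.43% of the FPKM sum in each KO library, against 15.0% and 14.9% in the WT libraries. These are shares of summed FPKM, not of fragments. Such a fall can raise the relative values of other genes, and its part in the rises below was not tested. With libraries scaled without crystallin and globin genes, the median log2 fold change of all genes tested was −0.04, against 0.04 without this scaling. That of Trp63 was 0.88, against 0.95.

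All 10 genes rose in the KO libraries. Every one had both KO values above both WT values, and every one passed the test (limma, Benjamini-Hochberg adjusted p under 0.05 over all genes). Ratios of mean FPKM, KO over WT, ran from 1.44 for Jup to 2.15 for Trp63, with a median of 1.88. Calls were frequent in this comparison. Of 13887 genes tested, 54.6% were called in either direction, 33.5% higher and 21.1% lower in KO libraries. Both KO libraries were above both WT libraries in 45.6% of the genes and below both in 32.4%. Called genes were split 4654 higher and 2932 lower (61.3% higher), a split that moved to 80.7% higher with TPM and to 44.9% higher with libraries scaled without crystallin and globin genes. The median log2 fold change was 0.75 over the 10 genes and 0.04 over all genes tested. With TPM the median of all genes moved to 0.16.

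**Figure D1:**
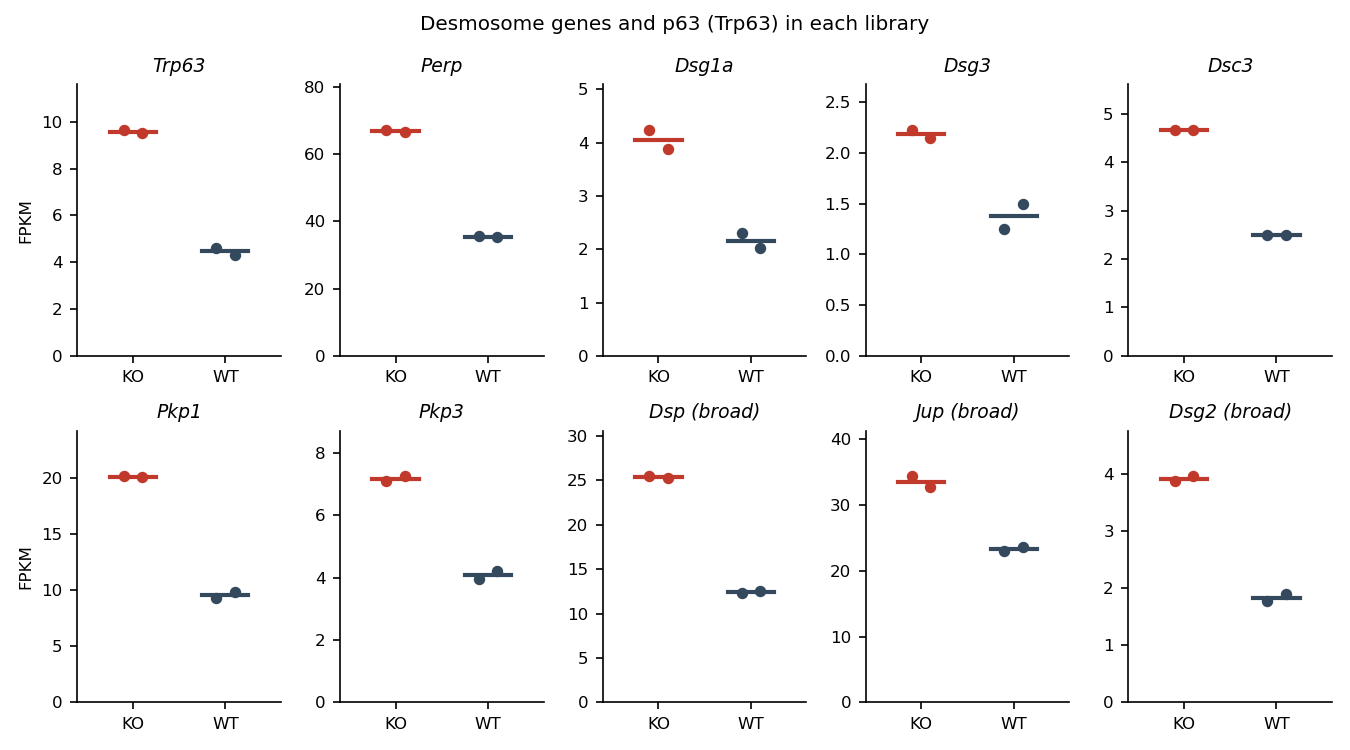
FPKM (vertical axes, each from 0) of the 10 genes in each library, with KO libraries at the left and WT libraries at the right of each panel. Points are libraries and lines are group means, and in every panel both KO points lie above both WT points.

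Trp63 (Entrez 22061, GRCm38 chromosome 16, positions 25683763 to 25892102, plus strand), which encodes p63, had 9.66 and 9.50 FPKM in KO libraries, against 4.60 and 4.32 FPKM in WT libraries. The KO mean was 2.15 times the WT mean, the highest ratio among the 10 genes, and the groups were far apart relative to the spread within each. On the log2 scale Trp63 rose by 0.95 (SE 0.057, limma adjusted p = 1.88e-05). The gene makes long and N-terminally shortened p63 proteins from separate promoters, and a gene-level value does not tell them apart. Perp (Entrez 64058, chromosome 10, positions 18845020 to 18857073, plus strand), a tetraspan membrane protein of desmosomes, was the most abundant of the 10 genes per length of transcript. It had 67.23 and 66.62 FPKM in KO libraries, against 35.50 and 35.36 FPKM in WT libraries. Replicates lay within 1 FPKM of each other in both groups, and Perp rose by 0.90 on the log2 scale (SE 0.030, limma adjusted p = 1.78e-06).

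Among the desmosomal cadherins of stratified epithelium, Dsg1a and Dsc3 rose to a similar degree and Dsg3 by less. These cadherin genes, with Dsg2, lie in the desmosomal cadherin cluster of chromosome 18 between positions 19960930 and 20604521. Dsg1a (Entrez 13510), desmoglein 1 alpha of the upper epidermal layers, had 4.24 and 3.87 FPKM in KO libraries, against 2.30 and 2.02 FPKM in WT libraries. Dsg1a rose by 0.68 on the log2 scale (SE 0.083, limma adjusted p = 0.000513). Near-identical copies, Dsg1b and Dsg1c, lie in the same cluster, so the value of Dsg1a is uncertain in so far as shared reads were divided among them. Dsc3 (Entrez 13507), desmocollin 3 of the basal layers, was listed at 4.67 FPKM in both KO libraries, against 2.49 and 2.50 FPKM in WT libraries, and its log2 fold change was 0.70 (SE 0.067, adjusted p = 0.00016). Dsg3 (Entrez 13512), the desmoglein of basal layers and mucosa, was the lowest of the 10 genes. It had 2.23 and 2.15 FPKM in KO libraries, against 1.25 and 1.50 FPKM in WT libraries, which gives 0.43 on the log2 scale (SE 0.093, adjusted p = 0.00713). Its call was lost without KO replicate 1, where the adjusted p was 0.0531 and the log2 fold change 0.41. At the longest annotated transcript, the Dsg3 values stand for about 250 and 239 fragments in KO libraries and about 141 and 168 in WT libraries. Counting error alone is then 6.33% and 6.46% of the KO values and 8.44% and 7.72% of the WT values.

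The stratified plakophilins, armadillo proteins that bind desmosomal cadherins to desmoplakin, rose as well. Pkp1 (Entrez 18772, chromosome 1, positions 135871395 to 135919207, minus strand), which predominates in suprabasal layers, had 20.12 and 20.01 FPKM in KO libraries, against 9.32 and 9.83 FPKM in WT libraries. Its log2 fold change of 0.99 (SE 0.045, limma adjusted p = 5.69e-06) was the largest of the 10 on this scale. Pkp3 (Entrez 56460, chromosome 7, positions 141078218 to 141090510, plus strand), found throughout the layers of stratified epithelia and also in simple epithelia, had 7.10 and 7.25 FPKM in KO libraries, against 3.94 and 4.22 FPKM in WT libraries. It rose by 0.69 on the log2 scale (SE 0.061, adjusted p = 0.000114).

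The 3 broadly expressed genes all rose, by different amounts. Dsp (Entrez 109620, chromosome 13, positions 38151294 to 38198577, plus strand), desmoplakin, had 25.45 and 25.27 FPKM in KO libraries, against 12.31 and 12.51 FPKM in WT libraries. Its rise of 0.98 on the log2 scale (SE 0.038, limma adjusted p = 3.31e-06) was close to that of Pkp1. Dsg2 (Entrez 13511), the desmoglein of simple epithelia and heart muscle, had 3.87 and 3.96 FPKM in KO libraries, against 1.77 and 1.89 FPKM in WT libraries. The KO mean was 2.14 times the WT mean, and the log2 fold change was 0.80 (SE 0.074, adjusted p = 0.000143). Jup (Entrez 16480, chromosome 11, positions 100368958 to 100397763, minus strand) encodes plakoglobin, which serves both desmosomes and adherens junctions. It had 34.38 and 32.70 FPKM in KO libraries, against 22.96 and 23.58 FPKM in WT libraries, and rose by 0.51 (SE 0.039, adjusted p = 5.87e-05). Its ratio of 1.44 was the lowest of the 10, although its groups did not overlap. An annotated antisense gene, Gm16090, overlaps Dsg2, and the sources used here do not say if strand was used to assign reads.

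RefSeq promoter sequences of GRCm38.p6, from 250 bases before to 50 bases after the annotated start, were on hand for 2 of the 10 genes, Dsp and Jup. They are shown because no other promoters of the 10 genes were on hand. These broadly expressed partners, which bind each other in the desmosome, rose by 0.98 (Dsp) and 0.51 (Jup) on the log2 scale. Whether the sequences bear on these rises was not tested. Capitals mark the GC box GGGCGG on either strand.
Dsp, chr13:38151044-38151343, plus strand: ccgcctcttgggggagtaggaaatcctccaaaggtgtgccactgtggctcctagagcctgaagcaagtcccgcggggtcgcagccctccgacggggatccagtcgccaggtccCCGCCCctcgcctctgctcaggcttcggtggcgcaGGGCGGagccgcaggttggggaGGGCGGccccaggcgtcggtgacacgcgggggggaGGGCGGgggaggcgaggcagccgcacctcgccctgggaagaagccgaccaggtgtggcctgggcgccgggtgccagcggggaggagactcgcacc
Jup, chr11:100397741-100398040, minus strand: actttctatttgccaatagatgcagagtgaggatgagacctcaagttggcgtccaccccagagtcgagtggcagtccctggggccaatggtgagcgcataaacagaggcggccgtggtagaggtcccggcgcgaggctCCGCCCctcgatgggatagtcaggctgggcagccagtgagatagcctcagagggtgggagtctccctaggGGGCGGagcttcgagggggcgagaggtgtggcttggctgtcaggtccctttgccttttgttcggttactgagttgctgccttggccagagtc
The Dsp window held 4 GC boxes, 27 CG pairs and 73.0% G and C. The Jup window held 2 GC boxes, 14 CG pairs and 60.7% G and C. Over 32851 promoters of the same length, medians were 7 CG pairs and 52.7% G and C, and 35.7% of the promoters held a GC box. On both strands, the half-site of the p63 and p53 family was matched 1 time in the Dsp window, 190 bases before the start, and 0 times in the Jup window, and 8.36% of all promoters held a match. The AP-1 site TGANTCA, the Grainyhead site AACCGGTT and the TATA box TATAAA were matched in neither window, and 7.81%, 0.146% and 13.6% of all promoters hold them. No matched motif overlapped another.

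Set against each other, the genes of stratified epithelium and the broadly expressed ones interleaved. The median log2 fold change was 0.70 over the 7 stratified genes (range 0.43 to 0.99) and 0.80 over the 3 broad genes (range 0.51 to 0.98). The difference between the sets was not tested. Its direction depended on the filter. With 5 FPKM or more required in 2 or more libraries, 6 genes were left and the medians were 0.93 (stratified) and 0.74 (broad). The order of levels per length was the same in both groups, namely Perp, Jup, Dsp, Pkp1, Trp63, Pkp3, Dsc3, Dsg1a, Dsg2 and Dsg3. Values of neighbours in that order did not overlap within a group, except those of Dsg1a and Dsg2 in the KO libraries, where their means were 4.05 and 3.92 FPKM.

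**Figure D2:**
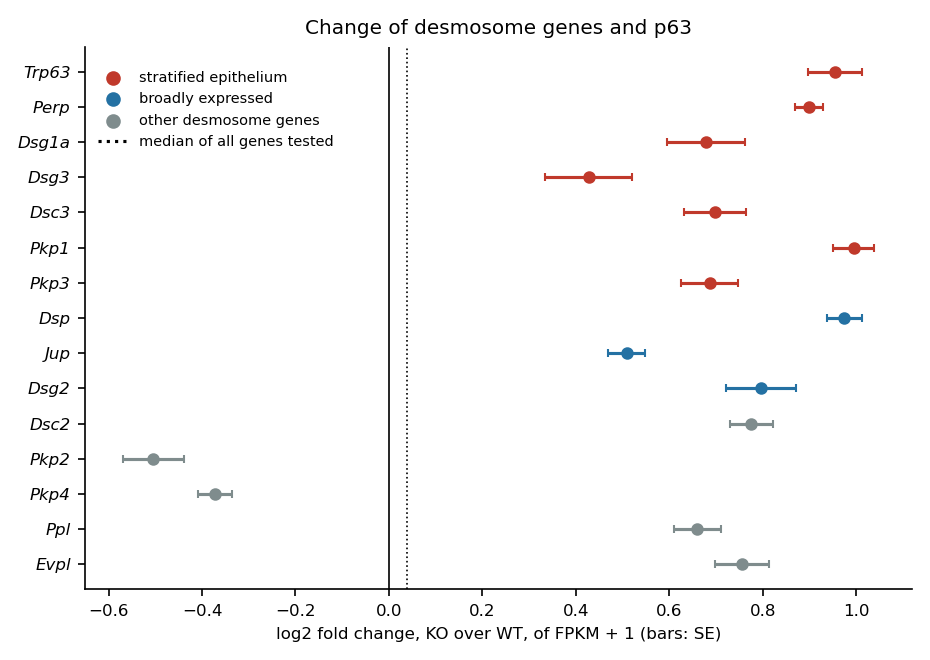
Log2 fold change of FPKM + 1, KO over WT (horizontal axis), with bars for the SE, for the 7 stratified genes (red), the 3 broadly expressed genes (blue) and the other desmosome genes tested (grey). All points lie above 0 except Pkp2 (−0.50) and Pkp4 (−0.37), and the dotted line is the median of all genes tested, 0.04.

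Desmosome genes beyond the 10 did not all rise. Of 9 such genes listed, 5 reached the level tested (a mean of 1 FPKM or more), and 3 of these were higher and 2 lower. Dsc2, the widely expressed desmocollin, had 14.43 and 14.87 FPKM in KO libraries, against 8.10 and 8.18 FPKM in WT libraries (log2 fold change 0.78, limma adjusted p = 1.76e-05). The plakin genes Evpl (0.76) and Ppl (0.66), whose proteins join desmosomes to the cornified envelope, also rose. Pkp2, the plakophilin of simple epithelia and heart muscle, had 3.25 and 3.37 FPKM in KO libraries, against 5.22 and 5.01 FPKM in WT libraries, and fell by 0.50 (SE 0.065, adjusted p = 0.00065). Pkp4, an armadillo protein found at adherens junctions as well, had 32.95 and 31.34 FPKM in KO libraries, against 41.80 and 41.96 FPKM in WT libraries, and fell by 0.37 (SE 0.036, adjusted p = 0.000178). The directions of Pkp2 and Pkp4 held under every scaling tried. Dsc1, Dsg1b, Dsg1c and Dsg4, genes of keratinising epidermis and hair, were at 0.61 FPKM or less in every library.

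Shares of a family within a library do not depend on how libraries are scaled. Dsg1a and Dsg3 made up 62.6% and 60.3% of the summed FPKM of Dsg1a, Dsg2 and Dsg3 in KO libraries, against 66.7% and 65.1% in WT libraries. The groups did not overlap, and the mean share was 4.45 percentage points lower in KO libraries. For the joint share of Dsg1a and Dsg3, the exact two-sided permutation test gave p = 0.333, the smallest value that 2 libraries against 2 allow. The plakophilins moved more, a comparison chosen after the values were seen. Pkp1 and Pkp3 made up 42.9% and 44.0% of the summed FPKM of Pkp1 to Pkp4 in KO libraries, against 22.0% and 23.0% in WT libraries (exact permutation p = 0.333, again the smallest possible). Dsc3 was 24.5% and 23.9% of the desmocollin sum of Dsc2 and Dsc3 in KO libraries, against 23.5% and 23.4% in WT libraries. The mean share of Dsc3 was 0.71 percentage points higher in KO libraries, and the groups did not overlap. This share was also chosen after the values were seen (exact permutation p = 0.333, the smallest possible). At the longest annotated transcript, counting error alone is 4.72% and 4.73% of the Dsc3 values in KO libraries and 6.45% and 6.46% in WT libraries. It may give a shift of this size.

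**Figure D3:**
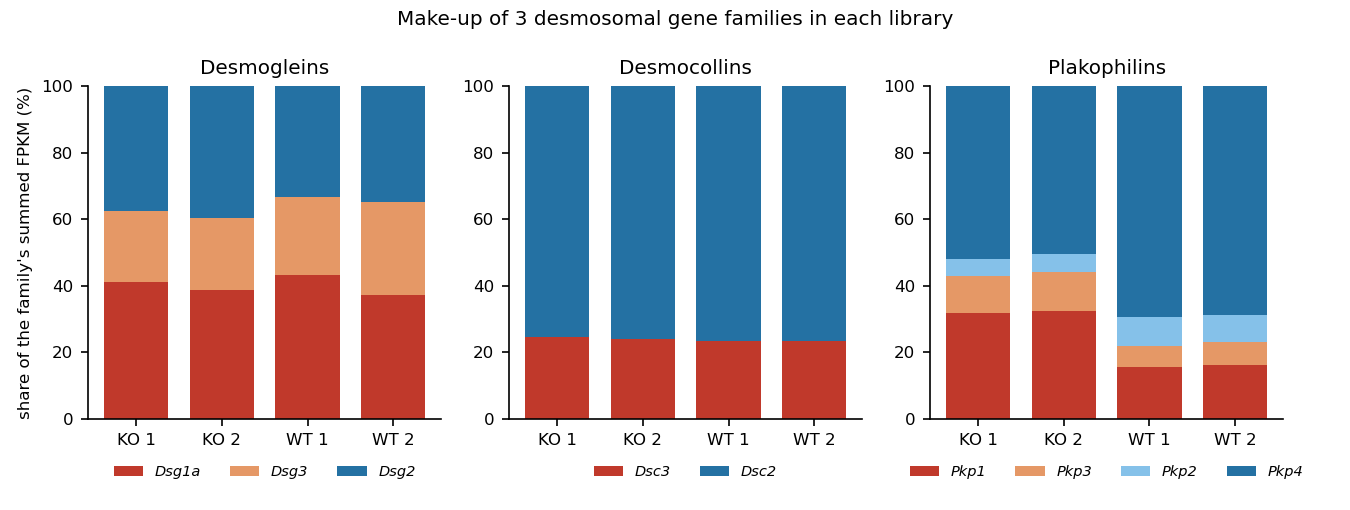
Share of each gene in its family's summed FPKM (vertical axis, percent), with a bar for each library, KO libraries at the left and WT libraries at the right. The plakophilin bars differ most, with Pkp1 at 31.7% and 32.3% in KO libraries and 15.5% and 16.1% in WT libraries.

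Genes regulated by p63 or acting beside it in epidermis mostly rose with Trp63. Of 19 listed, 15 were higher and 0 lower by the limma test, with a median of 0.65. Over all genes tested 33.5% were higher and 21.1% lower, shares that also stand beside the counts of the lists below. Marker lists of mesenchyme (median 1.13) and skeletal muscle (median 0.96), given below, rose as well. An unadjusted p under 0.05 gave no lower gene either. The lowest p-values were those of the basal keratin genes Krt14 (0.87) and Krt5 (1.03) and of Sfn (0.74), the epithelial 14-3-3 protein. Krt5 had 362.3 and 359.9 FPKM in KO libraries, against 170.1 and 181.9 FPKM in WT libraries. Sfn had 33.44 and 34.88 FPKM in KO libraries, against 19.66 and 20.30 FPKM in WT libraries. The 4 genes without a call were Itga3 (0.08), Satb1 (0.01), Dlx3 (0.08) and Chuk (−0.05). Itga3 and Satb1 were called higher with TPM, Chuk was called lower with crystallin and globin genes left out of the scaling, and the call of Gata3 (0.51) was lost without either KO library.

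Keratins, the filaments that desmosomes anchor, rose in most cases. Of 10 keratin genes of stratified epithelia tested, 8 were higher and 1 lower, with a median of 0.89. Krt5 and Krt14, already counted with the p63 genes, are among them. Krt17, induced in appendages and stressed epithelium, rose most (1.69), and Krt15, a basal keratin that is abundant on the ocular surface, rose by 1.02. Krt12, the keratin of corneal epithelium, had 26.02 and 26.83 FPKM in KO libraries, against 31.20 and 31.59 FPKM in WT libraries (−0.24, limma adjusted p = 0.00115). All 4 keratins of simple epithelia were higher, from Krt18 (0.24) to Krt7 (1.03). Krt10 (0.22) had no call, though it had one with TPM and with the filter at 5 FPKM, and Krt16 was below the level tested.

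Hemidesmosome genes, which fix basal cells to the basement membrane, were higher in 7 of 9 cases and lower in 0, with a median of 0.80. Lamb3 (1.12), a chain of laminin-332, and Col17a1 (1.00), the transmembrane collagen of the hemidesmosome, had the lowest p-values. Itga6, the integrin chain that pairs with Itgb4, did not pass the test (−0.10, limma adjusted p = 0.0736) and was called lower with both rescalings of FPKM. Its partner Itgb4 rose (0.89) and was also counted with the p63 genes above. Dst, also without a call (0.06), was called higher with TPM, and the call of Plec (0.19) was lost with libraries scaled without crystallin and globin genes and without WT replicate 2 or KO replicate 1. At an unadjusted p under 0.05, Itga6 was the only lower gene of this list.

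General epithelial genes were higher in 14 of 16 cases and lower in 0, also at an unadjusted p under 0.05, with a median of 0.63. Epcam (0.98), an epithelial adhesion protein, Esrp1 (0.92), an epithelial splicing factor, and Cdh1 (0.57), E-cadherin, were among them. The small rises of Cdh3 (0.16) and St14 (0.19) lost their calls with both rescalings of FPKM and on omission of any of the 4 libraries. Grhl3 (0.31) and Ovol1 (0.18) had no call, though Grhl3 was called with TPM and without WT replicate 2, and Ovol1 without KO replicate 1. Widely expressed adherens junction genes moved less, with 4 of 7 higher, 1 lower and a median of 0.12. N-cadherin, Cdh2, had 64.73 and 63.62 FPKM in KO libraries, against 95.05 and 95.88 FPKM in WT libraries, and fell by 0.57. Vcl (0.68), Ctnnd1 (0.24), Ctnna1 (0.18) and Ctnnb1 (0.12) rose, the last not under either rescaling of FPKM and not without either KO library. Afdn (−0.07) and Nectin2 (0.03) had no call, though Afdn was called lower with both rescalings and Nectin2 higher with TPM.

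Markers of whole tissues moved in the same libraries. The surface epithelium list (Krt5, Krt14, Krt15, Cdh1, Epcam and Cdh3) was higher for 6 of 6 genes, and its summed level was 1073 and 1074 FPKM in KO libraries, against 528.1 and 551.4 FPKM in WT libraries. Each of these genes, like Krt12 below, was already counted in a list above, so this is no separate result. The call of Cdh3 was lost with both rescalings of FPKM, as given above. The mesenchyme list (Col1a1, Col3a1, Lum and Foxc1) was higher for 4 of 4 genes, with sums of 1705 and 1702 FPKM in KO libraries, against 786.5 and 766.1 FPKM in WT libraries. The skeletal muscle list (Ckm, Acta1, Myh3, Myh8, Myod1 and Ttn) was higher for 6 of 6 genes, at 1334 and 1343 FPKM in KO libraries, against 676.8 and 679.3 FPKM in WT libraries. Of 4 endothelial markers 3 were higher and 1, Kdr, was lower, with sums of 99.5 and 98.2 FPKM in KO libraries, against 89.4 and 90.0 FPKM in WT libraries. All 6 lens markers were lower, with sums of 2655 and 2720 FPKM in KO libraries, against 28474 and 28986 FPKM in WT libraries. Of 5 neural retina markers 4 were lower and 1, Crx, was higher, with sums of 202.4 and 208.3 FPKM in KO libraries, against 264.4 and 259.5 FPKM in WT libraries. Of 4 pigment epithelium markers tested 3 were lower, with sums of 276.4 and 274.6 FPKM in KO libraries, against 363.9 and 361.7 FPKM in WT libraries, and Rpe65 was at 0.06 FPKM or less in every library. Of 3 corneal epithelium markers Aldh3a1 was higher, while Krt12 and Pax6 were lower, with sums of 137.2 and 140.9 FPKM in KO libraries, against 194.3 and 192.3 FPKM in WT libraries. Most of the corneal sum was Pax6, at 107.76 and 110.97 FPKM in KO libraries, against 160.94 and 158.43 FPKM in WT libraries. The part of these shifts in the rise of the desmosome genes was not tested, and in bulk tissue more cells of a type and more RNA per cell cannot be told apart.

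**Figure D4:**
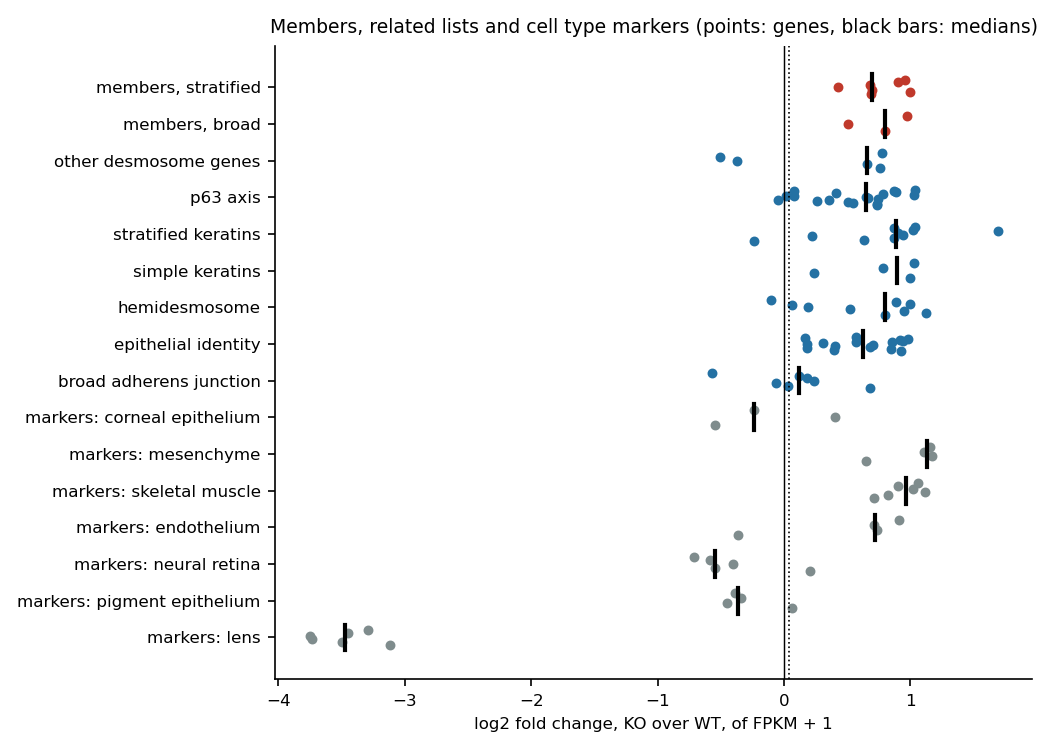
Log2 fold change of FPKM + 1, KO over WT (horizontal axis), of each gene tested (points) with list medians (black bars), for the 10 genes (red), related lists (blue) and cell type markers (grey). The dotted line is the median of all genes tested, 0.04. The 10 genes lie between 0.43 and 0.99, and the lens markers have a median of −3.47.

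The sum of the 10 genes was also set against the sum of each marker list, a comparison chosen after the values were seen. Against 3 of the lists it was slightly lower in KO libraries. For each 100 FPKM of the surface epithelium list, their summed FPKM was 16.7 and 16.4 in KO libraries, against 18.3 and 17.7 in WT libraries. Most of the surface epithelium sum was Krt5 (1.03), Krt14 (0.87) and Krt15 (1.02). Of its other genes Epcam rose by 0.98 on the log2 scale. Cdh1 (0.57) and Cdh3 (0.16) rose by less than the median of the 10 genes, 0.75. For each 100 FPKM of the mesenchyme list, the sum of the 10 genes was 10.5 and 10.3 in KO libraries, against 12.3 and 12.8 in WT libraries. For each 100 FPKM of the skeletal muscle list it was 13.4 and 13.1 in KO libraries, against 14.2 and 14.4 in WT libraries. Against the other 5 lists the sum was higher in KO libraries. For each 100 FPKM of the endothelial list it was 179.8 and 179.1 in KO libraries, against 107.9 and 108.6 in WT libraries. Kdr, a large part of the endothelial sum, had 48.91 and 46.21 FPKM in KO libraries, against 61.49 and 61.60 FPKM in WT libraries. The other genes of that list, Pecam1 (0.91), Cdh5 (0.71) and Tek (0.74), had log2 fold changes within the range of the 10 genes, 0.43 to 0.99. The sum of the 10 genes was also higher against the lists that fell in sum, namely corneal (mostly Pax6), neural retina, pigment epithelium and lens. For each 100 FPKM of the neural retina list, for example, it was 88.4 and 84.5 in KO libraries, against 36.5 and 37.7 in WT libraries. These ratios do not depend on how libraries are scaled, and no test was made of them.

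The genes whose profile over the 4 libraries was most like that of Trp63 included genes known from mesenchyme, muscle and collagen. Likeness was the root mean square difference of centred log2(FPKM + 1) values over 4 libraries, among 10388 genes that averaged 5 FPKM or more. The 5 closest were Alx4 (0.0042), a homeobox gene of craniofacial mesenchyme, Myl4 (0.012), an embryonic and atrial myosin light chain, Pcolce (0.013), an enhancer of procollagen processing, Car12 (0.014), a carbonic anhydrase, and Col5a1 (0.015), a fibrillar collagen. Alx4 had 14.43 and 14.14 FPKM in KO libraries, against 7.04 and 6.66 FPKM in WT libraries. With 4 libraries in 2 groups this measure mostly ranks genes by the size of their difference, and 106 genes lay within 0.05 of Trp63.

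The rise of the 10 genes kept its direction under each alternative tried. With TPM Pkp1 stood at 1.15 and Dsg3 at 0.64, and with libraries scaled without crystallin and globin genes they stood at 0.92 and 0.38. When 5 FPKM or more was required in 2 or more libraries, 6 of the 10 were tested and all 6 were called. Trp63 and Pkp3 passed this filter only through the KO libraries, where they are higher, so their calls under it add no support.

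**Figure D5:**
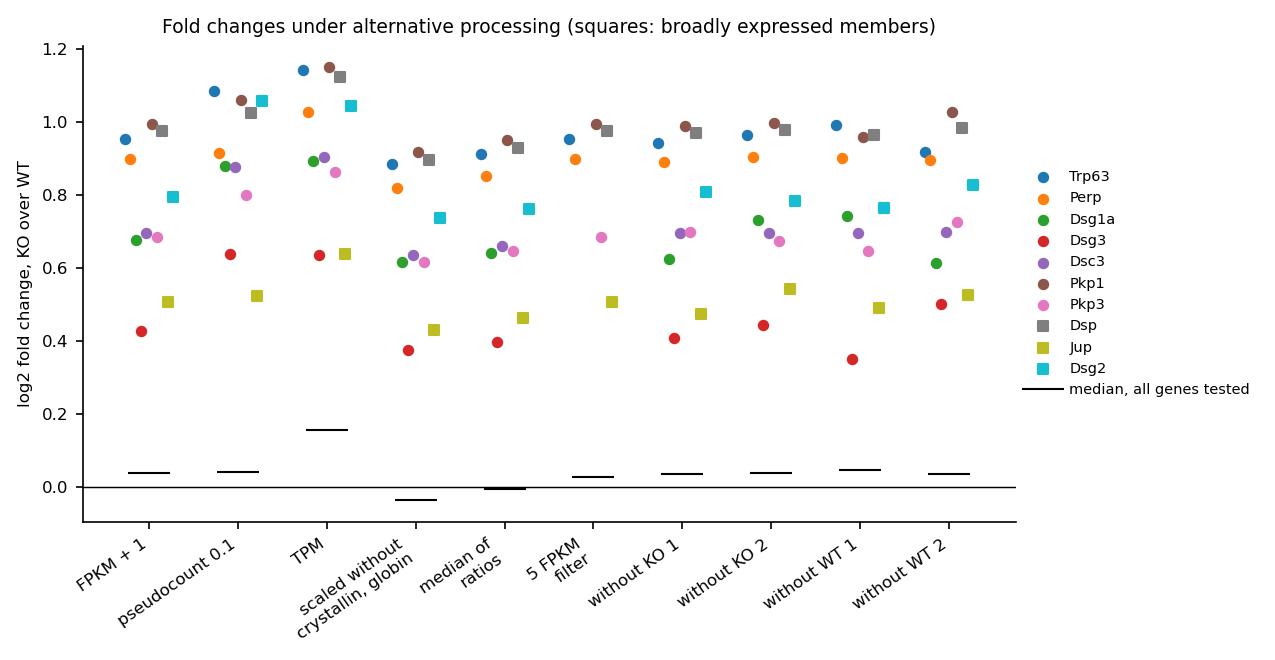
Log2 fold change, KO over WT (vertical axis), of the 10 genes under each processing alternative (horizontal axis), with squares for the 3 broadly expressed genes and black bars for the median of all genes tested. Every point lies above the median of its column, and Dsg3 or Jup is lowest in each.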

How the data were processed

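Total RNA of eye tissue was extracted with Trizol and sequenced on Illumina libraries, per the labels' protocols. The authors deposited FPKM and TPM values of 18702 genes for each of 4 libraries, per the file headers. Tools listed in the submitters' processing notes, without roles, are Cufflinks, DESeq, HISAT2 and TopHat, and builds are GRCm38 and GRCh38. The sources used here state no annotation, filter or strand setting. Positions come from GENCODE M21 on GRCm38.

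The 10 genes and all lists were chosen with earlier results of these data known, and some genes first listed are not reported here. Genes averaging 1 FPKM or more entered a fit of log2(FPKM + 1), in which KO was compared with WT by limma 3.58.1 under R 4.3.3, with genotype alone in the model, a variance trend and 2 residual degrees of freedom, two-sided, with Benjamini-Hochberg adjustment over all 13887 genes. The code was tested on simulated data. Shares were compared with an exact permutation test over libraries (scipy 1.17.1).

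Depth was estimated from steps of low FPKM values in single-transcript genes. Between 53.9% and 62.9% of these values lay within 0.15 of a whole fragment, too few to recover counts. At a depth fixed beforehand, chance would give 30.0%. The depth was instead chosen to bring these same values closest to whole fragments, so 30.0% is not its chance level. At the estimated depth replicates differed more than counting noise, with a mean chi-square per gene of 1.86 in KO and 1.98 in WT. The median chi-square was 1.13 times in KO and 1.39 times in WT that expected from counting noise. The libraries of a group were kept as 2 replicates. Named genes were the 10 genes, Anp32b, every other desmosome gene listed, of each other list up to 4 genes with the lowest p and those against the list's direction, and the 5 genes most like Trp63. Any further gene named was picked with its values in view. Alternatives were a pseudocount of 0.1, other filters, TPM, rescaling of FPKM without crystallin and globin genes or by median of ratios, the replicate number as a block, and omission of each library.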

Additional observations from a re-analysis of the deposited data

How the results depend on the processing

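No fold change of the 10 genes reversed, and of 106 refits of single genes 105 kept their call, the exception being Dsg3 without KO replicate 1. Fits that omit a library leave 1 library in that group, which is assumed to vary like the other group. With TPM 7182 genes were called higher and 1721 lower, and the medians were 0.91 for the stratified and 1.04 for the broad genes. With a pseudocount of 0.1 these medians were 0.88 and 1.03, with libraries scaled without crystallin and globin genes 0.64 and 0.74, and with median-of-ratios scaling the broad median was 0.76. With 5 FPKM or more required in 2 or more libraries, 6 of the genes were left, with medians of 0.93 and 0.74, so the stratified median became the higher. Trp63 and Pkp3 were left only through their KO values, so the first of these medians depends in part on the filter. On omission of each library the stratified median ran from 0.70 to 0.74 and the broad median from 0.77 to 0.83. Of the 10 genes, 9 to 10 were called higher, and 5401 to 6224 genes were called in all. Same-numbered libraries deviated together only weakly (correlation 0.044), and no label pairs them. With the replicate block 7828 genes were called, against 7586 without it, all 10 genes kept their call, and of the other genes named Krt10 and Grhl3 gained one. Depth limits mainly Dsg3, Dsg2, Dsg1a and Dsc3, whose values rest on the fewest fragments, with Pkp3.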

Other observations

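Perp is also known as a target of p53, so 12 other p53 targets, listed after the values of Perp were seen, are set beside it. Of 11 tested, 8 were higher in KO libraries and 0 lower, also at an unadjusted p under 0.05, with a median log2 fold change of 0.39, where 33.5% of all genes tested were higher. Eda2r, counted as higher, reached the level tested only through its KO libraries (1.46 and 1.23 FPKM, against 0.70 and 0.71 FPKM in WT libraries). Phlda3, a p53-induced inhibitor of AKT, had a log2 fold change of 0.80 (SE 0.039, limma adjusted p = 8.49e-06). Cdkn1a, the cell cycle inhibitor p21, averaged 48.6 FPKM in KO libraries and 29.9 FPKM in WT libraries (0.68). The apoptosis genes Bax (−0.04) and Bbc3 (−0.02) and the p53 regulator Mdm2 (0.02) did not pass the test, although Mdm2 was called higher with TPM and Bax lower with libraries scaled without crystallin and globin genes. Zmat3 (0.22) and Fas (0.43) lost their calls without a filter and on omission of each of 3 libraries, and Zmat3 also with both rescalings of FPKM. The p53 relative Trp73 rose with Trp63, from low levels, by 0.55 (SE 0.092, adjusted p = 0.00232).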
